A study of Homo sapiens with 3 samples.

Results

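The subject is the core of the transforming growth factor beta (TGF-beta) pathway, taken as 9 genes by symbol: the ligands TGFB1, TGFB2 and TGFB3, the receptors TGFBR1, TGFBR2 and TGFBR3, and the signal transducers SMAD2, SMAD3 and SMAD4. All 9 were found among 17576 genes in the table. RNA was sequenced from LX-2, an established human hepatic stellate cell line, grown in medium with fetal bovine serum. There were 3 libraries, 1 in each of 3 groups, all taken at 48 h: cells given the vehicle DMSO, cells given TGF-b1, and cells given both TGF-b1 and DP, a natural small molecule, at 10 μM. The labels give neither the concentration and source of TGF-b1 nor the vehicle of that culture. With 1 library per group there is no replicate error, so no difference below has a test, and each describes these libraries only.

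TGF-beta ligands are secreted in a latent form, bound to their own propeptide and often to a latent TGF-beta binding protein in the matrix. Once released, a ligand binds the type II receptor TGFBR2, which phosphorylates the type I receptor TGFBR1. TGFBR1 then phosphorylates SMAD2 and SMAD3, which join SMAD4 and enter the nucleus. TGFBR3, also called betaglycan, is a coreceptor without kinase activity that presents ligand, TGFB2 in particular. In injured liver this pathway drives stellate cells to become matrix-producing myofibroblasts, and the cytokine added to cultures is the protein product of TGFB1, so TGFB1 RNA reports what the cells themselves transcribe.

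Values are FPKM, fragments per kilobase of transcript relative to all mapped fragments, as the authors deposited them. FPKM is per length, so levels are set side by side between genes. Differences between these libraries still followed transcript length, as given below. Orders and shares of members are given as deposited, without correction for it. Differences are log2((FPKM + 1)/(FPKM + 1)), which understates the difference of low genes. The words higher and lower are used for absolute log2 differences that reach 1, or 2-fold after adding 1 FPKM, among the 11327 genes whose 3 libraries average 1 FPKM or more; other differences are given as values. Of the 9 genes, 8 passed that filter. TGFB3, at a mean of 0.43 FPKM, did not.

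The scale of the libraries and the length of transcripts bear on every difference, most of all where the TGF-b1 library is compared. The summed FPKM was 443566 for DMSO, 546754 for TGF-b1 and 429399 for the library with DP. Counts of all genes followed the scaling. In TGF-b1, set against DMSO, 262 genes were higher and 762 lower as deposited, 104 and 1559 at equal totals, and 583 and 487 under median-of-ratios scaling. For TGF-b1+DP versus TGF-b1 alone the split was 701 and 483 as deposited and 1433 and 125 at equal totals. The median of all genes for TGF-b1 versus DMSO was -0.10 as deposited, -0.36 at equal totals and 0.05 under median-of-ratios scaling. For TGF-b1+DP versus TGF-b1 alone it was 0.00 as deposited and 0.29 at equal totals. Differences also followed transcript length. Medians were 0.46 over the 1129 shortest genes and -0.48 over the 1128 longest for TGF-b1 versus DMSO, and -0.66 and 0.50 for TGF-b1+DP versus TGF-b1 alone. Values corrected for transcript length and GC content are therefore given where they matter.

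The libraries held stellate markers: VIM was at 1936, 2734 and 2800 FPKM across DMSO, TGF-b1 and TGF-b1+DP, and 8, 8 and 7 of the 11 stellate markers in the table reached 1 FPKM. The markers did not move together: TIMP1 was at 271, 1111 and 1717 FPKM and COL1A1 at 295, 604 and 349, while ACTA2 was at 21.1, 78.1 and 6.79, COL3A1 at 34.9, 33.1 and 10.8, and THY1 at 2.42, 1.58 and 0.42. DES and LRAT, also on the stellate list, lay at or below 0.06 FPKM in every library, and PDGFRA at or below 0.21. Summed over their lists, hepatocyte markers were at 4.04, 1.94 and 88.6 FPKM, nearly all from SERPINA1, with ALB at or below 0.02. Macrophage and leukocyte markers summed to 55.1, 26.4 and 58.2 FPKM, mostly CD68, with PTPRC at 0.58, 0.55 and 0.26. Endothelial markers summed to 1.45, 1.22 and 3.75 FPKM, and epithelial and cholangiocyte markers to 16.2, 21.4 and 10.6, mostly SOX9. The part of these other markers in the results was not tested. In bulk RNA, fewer cells of a kind and less RNA per cell cannot be told apart.

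**Figure D1:**
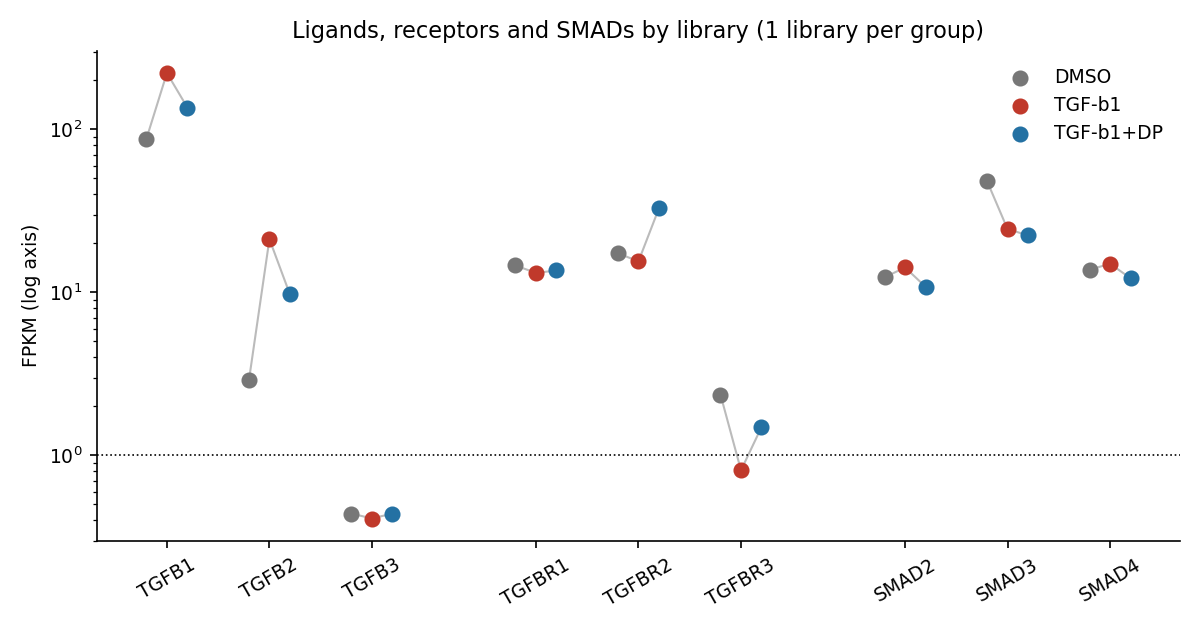
FPKM (log axis) of the 9 genes in the DMSO, TGF-b1 and TGF-b1+DP libraries, 1 point per library, grouped as ligands, receptors and SMADs; the dotted line is 1 FPKM. TGFB1 is the highest gene in each library and TGFB3, at 0.41 to 0.44 FPKM, the lowest, while TGFB2 spans 2.89 to 21.2 FPKM.

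TGFB1 was the most abundant of the 9 genes in each of the 3 libraries and TGFB3 the least. In DMSO the order was TGFB1, SMAD3, TGFBR2, TGFBR1, SMAD4, SMAD2, TGFB2, TGFBR3 and TGFB3. In TGF-b1 the ligand TGFB2 stood in 3rd place, and TGFBR1 in 7th. With DP, TGFBR2 stood in 2nd place ahead of SMAD3, and TGFB2 was again in 7th. TGFBR1, SMAD2 and SMAD4 lay at 10.8 FPKM or more and below SMAD3 in all libraries, and with no replicate spread their order among themselves is not resolved. Among all genes, TGFB1 ranked 944th in DMSO, 401st in TGF-b1 and 517th with DP.

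The first comparison, TGF-b1 versus DMSO, sets the library of cells given the cytokine beside that of cells given the vehicle. Both ligands that passed the filter were higher, and no receptor or SMAD reached 1 in either direction. Thus 2 of 8 genes were higher and none was lower, where 2.31% of all genes were higher and 6.73% lower. The 8 genes were chosen by name and with earlier results of these data known, so that count describes these genes and was not tested.

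TGFB1 encodes the ligand that stellate cells, macrophages and platelets release in liver. It is gene ID 7040, on chromosome 19 from 41301587 to 41353911 on the minus strand (GRCh38), with 4 GENCODE transcripts. Its level was 87.5 FPKM in the DMSO library, 222 in the TGF-b1 library and 136 with TGF-b1+DP. The DMSO library was lowest and the TGF-b1 library highest, with DP between them. The level in TGF-b1 was 2.53 times that in DMSO, a log2 difference of 1.33, which 89 of the 11327 genes reached (TGFB1 included). It was 1.03 at equal totals and 1.68 once length and GC content were adjusted for. Exons of TGFB1 share 215 bases with HNRNPUL1 on the opposite strand, and the labels do not say whether the counting used strand. HNRNPUL1 was at 201 FPKM in the DMSO library, 124 in the TGF-b1 library and 121 with TGF-b1+DP. Its part in the TGFB1 values was not tested.

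TGFB2 encodes the isoform that binds TGFBR2 weakly unless betaglycan is present. It is gene ID 7042, on chromosome 1 from 218346235 to 218444619 on the plus strand. Its level was 2.89 FPKM in the DMSO library, 21.2 in the TGF-b1 library and 9.72 with TGF-b1+DP. The order of the libraries was that of TGFB1, with a wider spread. TGF-b1 was at 7.34 times the DMSO level, a log2 difference of 2.51 that 18 genes reached. That difference lay between 1.73 and 2.83 over the processing settings, some of which change only which genes are kept. No exon overlap with another measured gene was found.

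TGFB3, the third isoform, is gene ID 7043 on chromosome 14 (75958099 to 75982991, minus strand). It was at 0.44 FPKM in the DMSO library, 0.41 in the TGF-b1 library and 0.44 with TGF-b1+DP. The 3 values are nearly alike in a table given to 2 decimals, and at so low a level without known depth no difference could be resolved. TGFB1 made up 96.3% of the summed ligand FPKM in the DMSO library, 91.1% in the TGF-b1 library and 93.1% with DP. TGFB2 made up 3.18%, 8.72% and 6.65% in the same order. The summed ligand level was 90.9 FPKM, 243 and 146.

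The 250 bases before the RefSeq start of TGFB1 and TGFB2 (GRCh38.p14) are shown because both genes were higher in TGF-b1, and the makeup of the pair of windows can be compared. The RefSeq start of TGFB2 lies 899 bases before the GENCODE start given above, and that of TGFB1 11 bases before. The sequences are written 5′ to 3′ on the gene's strand, and capitals mark matches on either strand to GGGCGG (the GC box bound by SP1), CAGAC (the CAGA element bound by SMAD3 and SMAD4), TGANTCA (AP-1), TGACG (a half-site of the cyclic AMP response element), CACGTG (E-box) and TATAA (TATA box).
TGFB1, chr19:41353923-41354172, minus strand: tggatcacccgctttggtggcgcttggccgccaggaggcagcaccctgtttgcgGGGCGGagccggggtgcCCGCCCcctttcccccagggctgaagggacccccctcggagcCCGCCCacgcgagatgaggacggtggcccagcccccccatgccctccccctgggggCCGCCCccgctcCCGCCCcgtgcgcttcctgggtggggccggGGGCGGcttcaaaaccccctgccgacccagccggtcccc
TGFB2, chr1:218345086-218345335, plus strand: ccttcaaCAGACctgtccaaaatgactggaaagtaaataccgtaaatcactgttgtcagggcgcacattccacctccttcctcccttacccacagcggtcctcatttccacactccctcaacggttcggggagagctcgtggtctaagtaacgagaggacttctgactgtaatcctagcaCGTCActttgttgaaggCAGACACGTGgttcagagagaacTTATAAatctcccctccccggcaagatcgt

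The TGFB1 window was 76.8% G and C and held 6 GC boxes, on both strands, and none of the other motifs. The TGFB2 window was 50.4% G and C and held no GC box. It held 2 CAGA elements, at -243 to -239 and -53 to -49 counted from the start, a cyclic AMP response half-site at -70 to -66 on the other strand, an E-box at -49 to -44 and TATAA on both strands between -30 and -25. The second CAGA element and the E-box share 1 base, so their capitals run together. Of 35116 RefSeq windows of this length, 42.6% held a GC box, 38.0% a CAGA element, 21.2% the half-site, 6.34% the E-box, 18.9% TATAA and 6.57% the AP-1 motif. A match is a run of letters in this window and not a measured binding site.

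The receptors showed no difference of 1 in TGF-b1 versus DMSO. TGFBR1, the type I receptor kinase (gene ID 7046, chromosome 9, 99104038 to 99154192, plus strand), was at 14.6 FPKM in the DMSO library, 13.2 in the TGF-b1 library and 13.6 with TGF-b1+DP. The 3 values are close, with a log2 difference of -0.14 for TGF-b1 versus DMSO, or 0.03 under median-of-ratios scaling. TGFBR2, the type II receptor kinase (gene ID 7048, chromosome 3, 30606502 to 30694142, plus strand), was at 17.4 FPKM in the DMSO library, 15.5 in the TGF-b1 library and 32.8 with TGF-b1+DP. Only the DP library stood apart. For TGF-b1 versus DMSO the log2 difference was -0.15, with values on both sides of 0 over the settings (-0.44 to 0.09).

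TGFBR3, the coreceptor betaglycan (gene ID 7049, chromosome 1, 91680343 to 91906335, minus strand), was at 2.36 FPKM in the DMSO library, 0.81 in the TGF-b1 library and 1.49 with TGF-b1+DP. It was highest in DMSO and lowest in TGF-b1, the reverse of TGFB2. Its DMSO level was 2.91 times the TGF-b1 level in plain FPKM. On the log2(FPKM + 1) scale the difference was -0.89, short of the threshold, because the pseudocount weighs on low genes: it was -1.43 with a pseudocount of 0.1 FPKM and -0.34 with 5 FPKM. It was -1.05 at equal totals and -0.61 once length and GC content were adjusted for.

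Among the SMADs, SMAD3 lay just short of -1 in TGF-b1 versus DMSO as deposited, and SMAD2 and SMAD4 were close to DMSO. SMAD3, which binds DNA directly (gene ID 4088, chromosome 15, 67063763 to 67195195, plus strand), was at 48.2 FPKM in the DMSO library, 24.5 in the TGF-b1 library and 22.4 with TGF-b1+DP. Both libraries that received TGF-b1 lay below DMSO. The DMSO level was 1.97 times the TGF-b1 level, a log2 difference of -0.95. That value was -1.24 at equal totals and -0.42 once length and GC content were adjusted for, so its size moved with both settings.

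SMAD2, whose main protein form does not bind DNA by itself (gene ID 4087, chromosome 18, 47808957 to 47931146, minus strand), was at 12.4 FPKM in the DMSO library, 14.2 in the TGF-b1 library and 10.8 with TGF-b1+DP. SMAD4, the partner shared with the bone morphogenetic protein (BMP) branch (gene ID 4089, chromosome 18, 51028394 to 51085045, plus strand), was at 13.8 FPKM in the DMSO library, 15.0 in the TGF-b1 library and 12.2 with TGF-b1+DP. For both, TGF-b1 was highest and DP lowest, in a narrow range. The log2 differences for TGF-b1 versus DMSO were 0.19 and 0.12, and at equal totals they were -0.09 and -0.17. Once length and GC content were adjusted for they were 0.36 and 0.41. These corrected values are similar in size to the -0.42 of SMAD3, with the other sign. SMAD2 has a GENCODE transcript of 34526 bases, and its corrected values rest on that length.

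**Figure D2:**
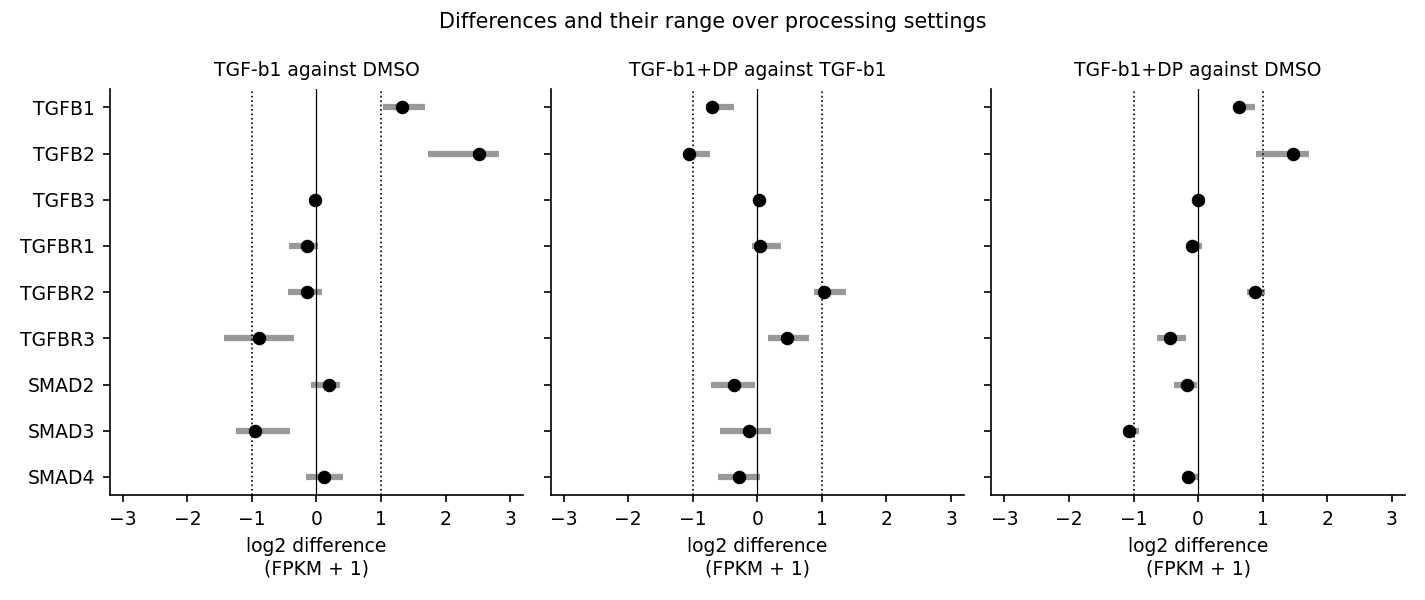
Log2 differences on the FPKM + 1 scale for the 9 genes in each comparison: the black point is the value as deposited and the grey bar runs from the lowest to the highest value over the processing settings that kept the gene, which is not a replicate error; dotted lines mark -1 and 1. TGFB1 and TGFB2 lie above 1 over the whole bar for TGF-b1 versus DMSO, and TGFBR2 lies between 0.87 and 1.37 for TGF-b1+DP versus TGF-b1 alone.

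The second comparison, TGF-b1+DP versus TGF-b1 alone, sets the library with DP beside that of cells given the cytokine alone. TGFBR2 was higher with DP and TGFB2 was lower. These were 1 of 8 genes higher and 1 of 8 lower, where 6.19% of all genes were higher and 4.26% lower. For 8 genes such counts are near the background and are no result about the group. The TGF-b1 library is shared with the first comparison, so the 2 differences of a gene are not independent.

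TGFBR2 with DP was at 2.12 times its level in TGF-b1 alone, a log2 difference of 1.04 that 640 genes reached. It was 1.37 at equal totals, 0.87 once length and GC content were adjusted for and 0.88 with a pseudocount of 5 FPKM. Against DMSO, a comparison without the TGF-b1 library, its level was 1.89 times as high and the log2 difference was 0.88, which 341 genes reached. TGFBR1 did not follow, at a log2 difference of 0.05 against TGF-b1 and -0.09 against DMSO. TGFBR3 had a log2 difference of 0.46 against TGF-b1 and -0.43 against DMSO.

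For both ligands, the level with DP lay between those of DMSO and TGF-b1 alone. TGFB2 with DP was at 0.458 times its level in TGF-b1, a log2 difference of -1.05. It was just short of -1 under upper-quartile scaling, -0.72 at equal totals and -0.83 with a pseudocount of 5 FPKM. Against DMSO it was at 3.36 times, a log2 difference of 1.46. TGFB1 with DP was at 0.614 times its TGF-b1 level (log2 difference -0.70, or -0.35 at equal totals) and at 1.55 times its DMSO level (0.63). For both, the distance from TGF-b1 alone was smaller at equal totals.

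For the SMADs, no difference of 1 was seen between TGF-b1+DP and TGF-b1. SMAD3 was at -0.12 (0.21 at equal totals), SMAD2 at -0.36 and SMAD4 at -0.28 (0.05 at equal totals). Once length and GC content were adjusted for these 3 values were -0.57, -0.72 and -0.61. The third comparison, TGF-b1+DP versus DMSO, had 1 of 8 genes higher (TGFB2) and 1 of 8 lower (SMAD3), where 2.45% of all genes were higher and 2.88% lower. SMAD3 was lower at -1.07, which 257 genes reached, and between -1.10 and -0.91 over the settings. That range is narrower than for TGF-b1 versus DMSO, and in this comparison the same sets of shortest and longest genes had medians of -0.15 and 0.01.

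**Figure D3:**
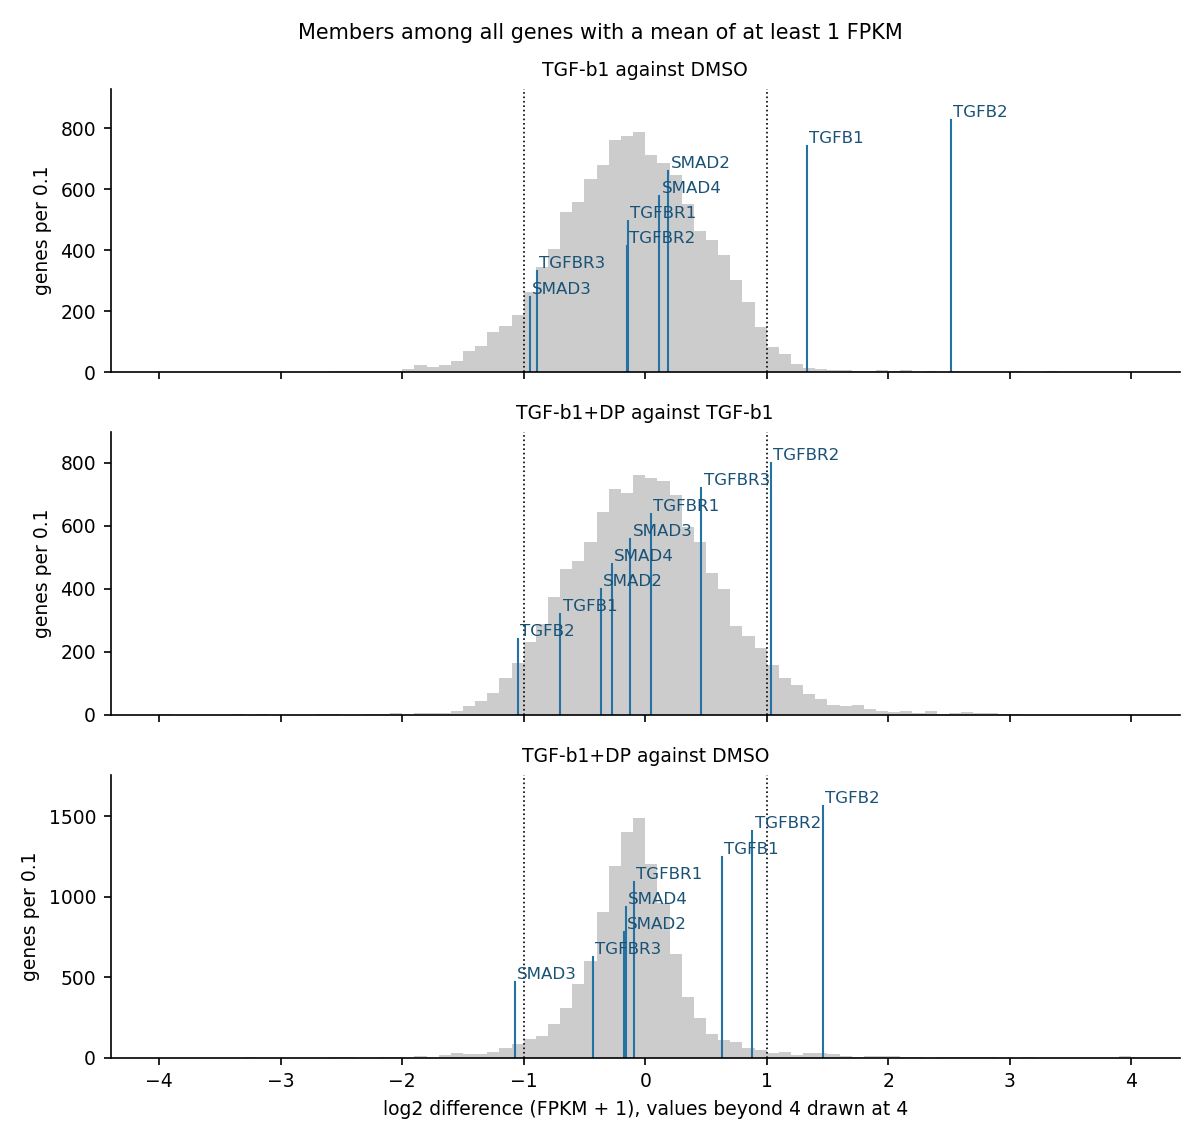
Histograms of the log2 difference (FPKM + 1 scale, bins of 0.1) of all 11327 genes past the filter in each comparison, with the 8 genes of the pathway core marked as labelled lines whose heights carry no value. TGFB2 and TGFB1 lie in the upper tail for TGF-b1 versus DMSO, at 2.51 and 1.33, while TGFBR1, SMAD2 and SMAD4 lie in the bulk of all 3 distributions.

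For TGFBR2 and SMAD3, the other members that reached 1, the 250 bases before a RefSeq start are given for comparison with those of the ligands, with the same motifs in capitals. RefSeq lists 2 windows for TGFBR2 and 5 for SMAD3, and the one nearest the GENCODE 5′ end was taken. The RefSeq start used lies 99 bases inside the GENCODE extent of TGFBR2 and 1839 bases inside that of SMAD3, so part of the first window and all of the second lie within the gene as GENCODE draws it.
TGFBR2, chr3:30606351-30606600, plus strand: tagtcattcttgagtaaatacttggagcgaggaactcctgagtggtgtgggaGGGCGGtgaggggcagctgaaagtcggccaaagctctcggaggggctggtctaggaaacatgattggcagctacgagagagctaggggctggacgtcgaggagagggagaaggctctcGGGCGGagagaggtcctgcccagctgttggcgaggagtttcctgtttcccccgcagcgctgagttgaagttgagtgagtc
SMAD3, chr15:67065352-67065601, plus strand: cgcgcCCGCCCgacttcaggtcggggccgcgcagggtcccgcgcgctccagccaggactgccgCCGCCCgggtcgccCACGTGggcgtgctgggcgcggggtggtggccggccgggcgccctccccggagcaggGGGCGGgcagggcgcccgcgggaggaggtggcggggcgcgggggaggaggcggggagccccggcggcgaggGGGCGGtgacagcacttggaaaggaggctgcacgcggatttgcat

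The TGFBR2 window held 2 GC boxes and the SMAD3 window 4 GC boxes and 1 E-box. Neither held a CAGA element, a TATAA run, an AP-1 motif or the half-site in these 250 bases. Of the 4 windows shown, that of TGFB2 was alone in holding a CAGA element, which 38.0% of all windows held. That is no result about TGFB2. Windows of the other members were searched only as part of all windows, and their matches are not listed.

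Ratios between members of the same library do not depend on how libraries are scaled. The ratio of TGFBR2 to TGFBR1 was 1.19 in the DMSO library, 1.18 in the TGF-b1 library and 2.41 with DP. It stood apart in the DP library, by 1.03 on the log2 scale against TGF-b1 and 1.02 against DMSO, and by 0.95 and 1.10 when both genes were corrected for length and GC content. Changes of a ratio are of plain FPKM, whereas the corrected ones start from differences on the FPKM + 1 scale. The ratio of SMAD3 to SMAD2 was 3.90 in the DMSO library, 1.72 in the TGF-b1 library and 2.07 with DP. Here DMSO stood apart, and the ratio was lower in TGF-b1 by a log2 difference of -1.18, or -0.77 after the same correction.

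The ratio of TGFB1 to TGFB2 was 30.3 in the DMSO library, 10.5 in the TGF-b1 library and 14.0 with DP, so TGFB1 exceeded TGFB2 in every library. Its log2 change in TGF-b1 versus DMSO was -1.53, or -0.80 after correction. The ratio of TGFBR1 to the coreceptor TGFBR3 was 6.20, 16.2 and 9.15, and its log2 change in TGF-b1 versus DMSO was 1.39, or 0.55 after correction. The corrected values of both ratios also carry the pseudocount, which weighs on TGFB2 and TGFBR3 at their low levels. The step to them is therefore not due to length and GC content alone. The ratio of SMAD4 to SMAD2 was 1.11, 1.05 and 1.13, close to each other in all 3 libraries. SMAD3 made up 64.9% of the summed SMAD2, SMAD3 and SMAD4 FPKM in the DMSO library, 45.6% in the TGF-b1 library and 49.3% with DP.

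**Figure D4:**
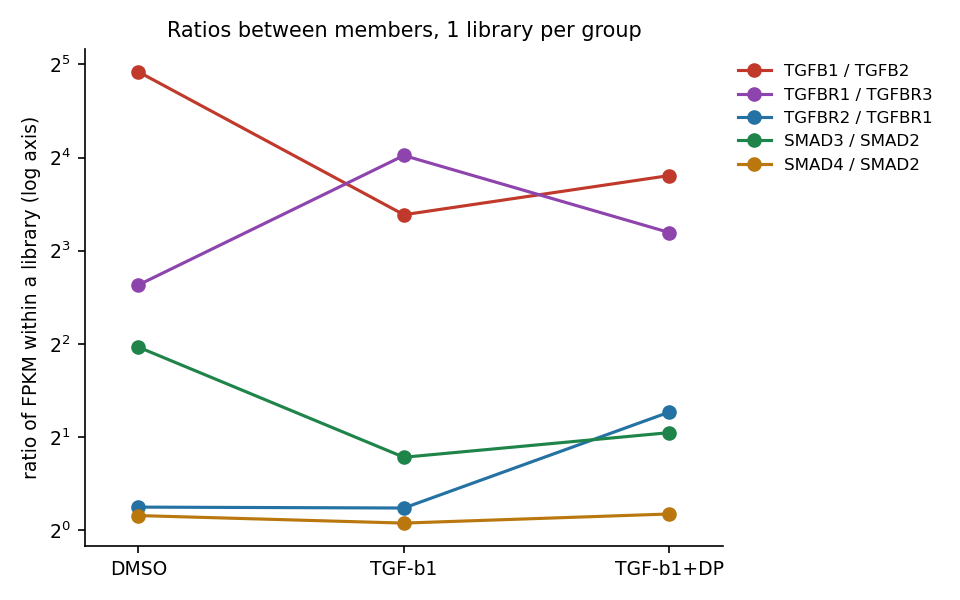
Ratio of the FPKM of 2 members within the same library (log axis) for the 3 groups, 1 point per library. TGFBR2 to TGFBR1 is near 1.2 in DMSO and TGF-b1 and 2.41 with DP, SMAD3 to SMAD2 is highest in DMSO at 3.90, and SMAD4 to SMAD2 lies between 1.05 and 1.13.

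Other genes of the pathway were taken from lists by function, drawn up with results of these data known. Of 85 such genes, 72 passed the filter. In TGF-b1 versus DMSO 18 were higher and 2 lower, where 2.31% of all genes were higher and 6.73% lower. The median was 0.00 beside -0.10 for all genes, or 0.22 beside -0.01 after correction. In TGF-b1+DP versus TGF-b1 alone 4 were higher and 8 lower, against 6.19% and 4.26% of all genes, so the higher count is near the background. The median was 0.30 beside 0.00 for all genes, or 0.06 beside -0.01 after correction. In TGF-b1+DP versus DMSO 18 were higher and 3 lower, against 2.45% and 2.88% of all genes, and the median was 0.10 beside -0.10. The same shares are the background of the counts by list that follow.

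Genes that hold ligands latent or release them were mostly within 1 of DMSO in TGF-b1: of 11 tested, 1 was higher, none was lower and the median was -0.21, which turned to 0.40 once length and GC content were adjusted for. It was THBS1, thrombospondin 1, which can activate latent TGF-beta, at 27.3, 94.4 and 102 FPKM across DMSO, TGF-b1 and TGF-b1+DP, with a difference of 1.75 for TGF-b1 versus DMSO. Its exons overlap FSIP1, which was below 1 FPKM in every library. LTBP3, a latent TGF-beta binding protein, was at 13.9, 6.66 and 9.93 FPKM and had the lowest difference of the list as deposited (-0.96). After correction that was -0.25, beside -0.46 for the integrin subunit ITGB3.

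With DP the 11 genes of this list had a median of 0.56 against TGF-b1 (0.31 after correction), with 1 higher and none lower. It was LTBP2, another binding protein of the family that itself does not bind latent TGF-beta, at 0.82, 1.60 and 5.58 FPKM (1.34, or 0.51 after correction). Against DMSO 4 were higher, with a median of 0.52. These were THBS1 (1.87), LTBP2 (1.85), ITGAV at 5.48, 10.9 and 16.5 FPKM (1.44), and ITGB1 at 190.1, 317 and 388 FPKM (1.02). ITGAV and ITGB1 encode integrin subunits, and integrins that contain the former release ligand from its latent complex. ITGB6 and ITGB8, its best known partners in that role, were at or below 0.38 FPKM in all libraries.

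Other receptors of the superfamily had no member past 1 in any of the 3 comparisons (6 of 12 tested). ENG, endoglin, a coreceptor related to TGFBR3, was at 49.2, 51.8 and 64.8 FPKM across DMSO, TGF-b1 and TGF-b1+DP. ACVR1B, the activin type I receptor, was at 12.4, 6.79 and 11.3 FPKM. ACVRL1, a type I receptor of endothelial cells, was at or below 0.53 FPKM. The SMADs of the BMP branch were likewise within 1 in every comparison, with SMAD1 at 4.65, 6.52 and 8.52 FPKM, SMAD5 at 15.4, 14.8 and 15.2 and SMAD9 at 2.45, 1.89 and 1.20.

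Negative regulators were compared between TGF-b1 and DMSO, where 2.31% of all genes were higher and 6.73% lower. Of 14 tested, 3 were higher and 1 lower and the median was 0.22, or -0.06 at equal totals. The lower count is near the background and is no result about the list. SMAD7, which blocks TGFBR1, was at 7.88, 18.8 and 23.5 FPKM across DMSO, TGF-b1 and TGF-b1+DP, with a difference of 1.15 for TGF-b1 versus DMSO. SKIL, a SMAD corepressor, was at 1.70, 4.72 and 4.08 FPKM (1.08, or 0.99 after correction). PMEPA1 was higher at 3.34 from a DMSO level below 1 FPKM, where the pseudocount weighs on the size. SMAD6, the inhibitory SMAD that acts mainly on the BMP branch, was lower at 3.74, 0.80 and 0.63 FPKM (-1.40, or -0.70 once length and GC content were adjusted for). It was also lower with DP than in DMSO (-1.54, or -1.38 after correction).

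Among the ubiquitin ligases of the list, which remove receptors and SMADs, SMURF2 was higher with DP than in DMSO, at 18.2, 26.1 and 53.1 FPKM (1.50). SMURF1 was higher with DP than in TGF-b1, at 18.9, 11.7 and 26.0 FPKM (1.09, or 0.65 after correction), and had a difference of 0.44 against DMSO. The other ligases were within 1, with NEDD4L at 0.33 and WWP1 at 0.28 for TGF-b1+DP versus TGF-b1 alone and at -0.44 and 0.26 against DMSO. SMURF1 and SMURF2 have exons that overlap a gene on the other strand. For SMURF1 that gene is TRRAP, at 19.7, 7.37 and 18.5 FPKM, which was lowest in the same library as SMURF1. For SMURF2 it is CEP95, at 8.88, 7.40 and 6.17. BAMBI, a decoy receptor without a kinase, was at 4.54, 5.96 and 2.51 FPKM and had the lowest difference of the list for TGF-b1+DP versus TGF-b1 as deposited (-0.99). After correction that was -0.65, beside -0.68 for SMAD6.

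SMAD partners in transport and transcription had a median of -0.66 in TGF-b1 versus DMSO (-0.27 once length and GC content were adjusted for), with 1 of 13 lower and none higher. It was ZFYVE9, also called SARA, which brings SMAD2 and SMAD3 to the receptor, at 9.79, 4.38 and 7.50 FPKM (just past -1, or -0.76 once length and GC content were adjusted for). Exons of ZFYVE9 overlap CC2D1B, at 30.2, 16.8 and 31.7 FPKM. The coactivators EP300 (12.3, 6.46 and 13.9 FPKM) and CREBBP (14.5, 7.54 and 13.4 FPKM) had differences of -0.84 and -0.86, which were -0.04 and 0.12 after the correction. Of 6 genes of the branch through TRAF6 and MAP3K7 none reached 1 in any comparison, and MAP3K7, the kinase TAK1, was at 22.3, 21.9 and 23.1 FPKM.

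Targets of SMAD signalling were the list with the most differences, and many of its genes were already known to differ in these libraries. Of 23 tested, 17 were higher and none lower in TGF-b1 than in DMSO, with a median of 1.76, and 14 were higher and 2 lower with DP than in DMSO, with a median of 1.25. The first median was 1.15 without genes whose exons overlap another, and the second 0.80 with a pseudocount of 5 FPKM. With DP against TGF-b1 3 were higher and 8 lower and the median was -0.27, which turned to 0.08 at equal totals and was -0.04 without genes whose exons overlap another. IL11, a profibrotic cytokine, was at 8.61, 36.4 and 37.6 FPKM across DMSO, TGF-b1 and TGF-b1+DP, and was thus about as high with DP as with TGF-b1 alone. CDKN2B, a cell cycle inhibitor, at 2.75, 6.57 and 2.23 FPKM, and KLF10, at 24.5, 45.2 and 20.3, were lower with DP (-1.23 and -1.12 against TGF-b1). The lowest of the 8 was ACTA2 at -3.34, and LTBP2, named above, was among the 3 that were higher (1.34).

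**Figure D5:**
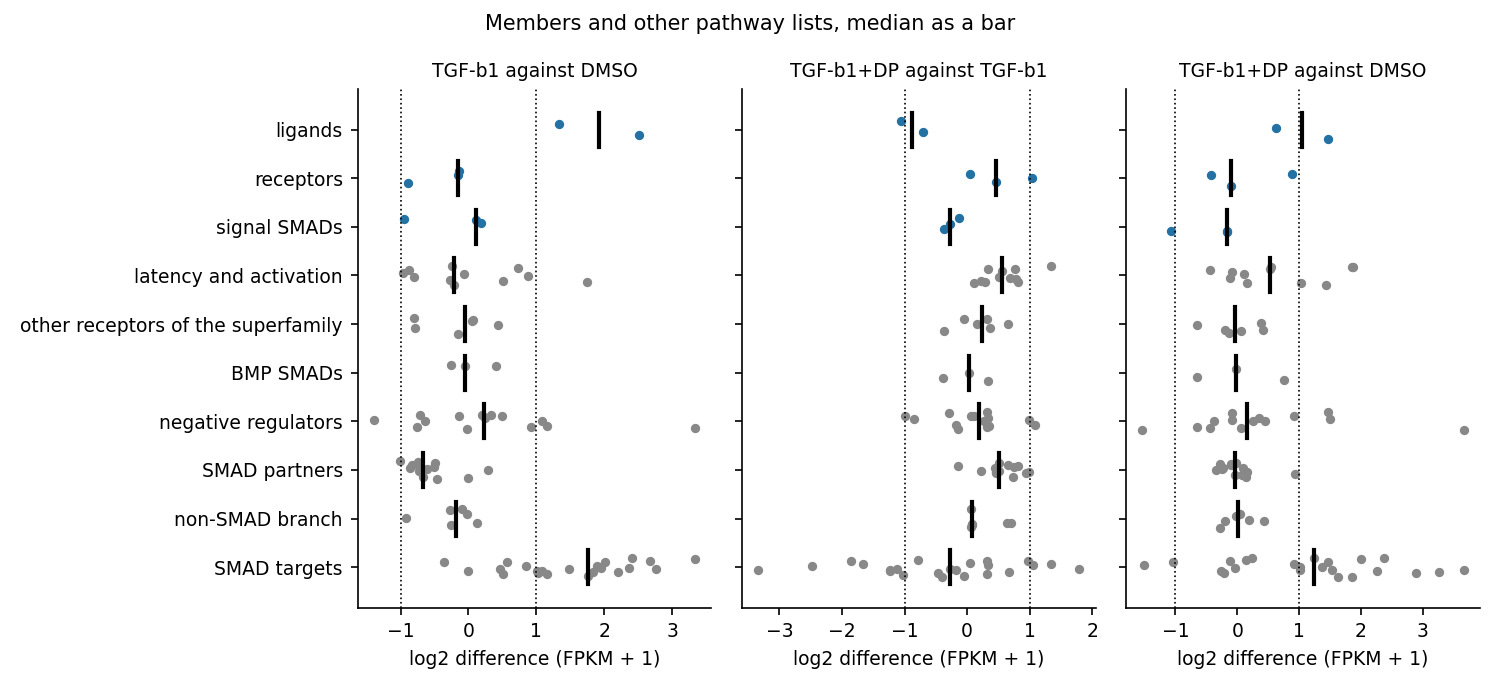
Log2 differences (FPKM + 1 scale) of the members (blue) and of the other pathway lists (grey) in each comparison, 1 point per gene past the filter, with the list median as a black bar, vertical scatter added for legibility and dotted lines at -1 and 1. SMAD targets spread upward in TGF-b1 (median 1.76) and TGF-b1+DP (1.25) against DMSO, and SMAD partners have a median of -0.66 in TGF-b1 versus DMSO, or -0.27 corrected.

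Genes whose 2 differences, TGF-b1 versus DMSO and TGF-b1+DP versus TGF-b1 alone, lay nearest to those of a member were found by Euclidean distance over the 3 libraries, among genes at a mean of at least 5 FPKM. Nearest to TGFB2 were TNFAIP6, a hyaluronan-binding protein, at 1.49, 13.4 and 6.25 FPKM (distance 0.066), then NREP (0.257) and TGFBI (0.308). Nearest to TGFB1 were DUSP1, a phosphatase of MAP kinases, at 20.5, 48.5 and 31.0 FPKM (0.146), RABGGTB (0.164) and NIFK (0.165). Nearest to TGFBR2 were CEMIP2 at 5.28, 4.56 and 10.4 FPKM (0.023), ERAP2 (0.037) and SLC39A14 (0.054). Nearest to SMAD3 were GATD3B (0.010), MCM6, a subunit of the replicative helicase, at 33.3, 16.7 and 15.5 FPKM (0.024), and FAM20C (0.040). Each pattern has 3 values per gene, and nearness describes the pattern only.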

How the data were processed

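Per the file headers, the authors deposited FPKM, rounded to 2 decimals, in 1 column for each library. The submitters' processing notes name BWA, Bowtie, Cufflinks, Cuffdiff and the build GRCh38.p13; what each tool did, its version, the strand setting and any filter were not found in the labels. Of 17596 lines, 20 held no gene and were left out. Depth is not given: in short genes FPKM times gene span lay within 0.2 of a whole step for 58.3% to 60.5% of values, too few to recover reads, so no counting interval is given. Differences used a pseudocount of 1 FPKM, a minimum mean of 1 FPKM and a log2 threshold of 1. Length and GC content came from the longest GENCODE 29 transcript, matched by Entrez identifier (98.6% of genes), and were removed with a cubic surface. The surface was fitted over the 11280 genes past the filter that had such a transcript. It includes a constant, so corrected values are also recentred, with a median of -0.01 over those genes in each comparison. Exon overlaps of at least 100 bases were found with bedtools 2.31.1, and near-identical transcripts (200 bases at 97%) of the members with minimap2 2.31, which found none. RefSeq windows (GRCh38.p14) were found for all 9 members. Python 3.11.15, numpy 2.4.6, pandas 2.3.3 and matplotlib 3.10.9 were used, and the computation was tested on simulated data. From the lists, genes past 1 in any comparison and the highest and lowest of a list could be named; others given as examples, and the ratios between members, were chosen after their values were seen. Members and lists were chosen with earlier results of these data known. The values of 1 target gene are not reported here.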

Additional observations from a re-analysis of the deposited data

How the results depend on the processing

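No paired analysis was possible because each group was 1 library, and for the same reason no library could be left out. The log2 differences of TGFB1 and TGFB2 for TGF-b1 versus DMSO stayed above 1 under every alternative that kept the gene (1.03 to 1.68 and 1.73 to 2.83). Of the differences of single members under alternatives, 199 kept their side of the threshold, 10 no longer reached it and 4 newly reached it. Part of the 199 was fixed in advance, since alternatives that change only which genes are kept leave the value of a kept gene unchanged. Of the 199, 9 had the other sign, and each of those was short of 1 as deposited and under the alternative. The called differences with DP of TGFB2 and TGFBR2 (against TGF-b1 alone) and of SMAD3 (against DMSO) lie close to 1, so counts of members changed easily.

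The counts that moved follow by setting, as higher and lower genes; causes were not tested beyond what a setting does by construction. Main counts for all pathway genes, members included, were 20 and 2 in TGF-b1 versus DMSO, 5 and 9 in TGF-b1+DP versus TGF-b1 alone, and 19 and 4 in TGF-b1+DP versus DMSO. For TGF-b1 versus DMSO, at equal totals 2 members were lower (TGFBR3 and SMAD3), 15 pathway genes were lower, and 104 genes were higher and 1559 lower. With a pseudocount of 0.1 FPKM 1 member (TGFBR3), 6 pathway genes and 1211 genes were lower. With a pseudocount of 5 FPKM 0 pathway genes were lower, and 149 genes were higher and 233 lower. Median-of-ratios scaling gave 583 and 487 genes and 1 lower pathway gene, as did upper-quartile scaling, a mean of at least 5 FPKM and leaving out genes with exon overlaps for the pathway count (1 lower each). Leaving out overlapping genes also left 1 higher member, since TGFB1 is among them. Correction for length and GC content gave 0 lower pathway genes and 201 lower genes.

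For TGF-b1+DP versus TGF-b1 alone, a pseudocount of 5 FPKM left 0 members in either direction, 2 and 5 pathway genes, and 281 and 264 genes. At equal totals 0 members were lower, pathway genes were 16 and 4, and all genes 1433 and 125. Upper-quartile scaling left 0 lower members and 8 higher pathway genes, and a pseudocount of 0.1 FPKM 9 higher pathway genes. After correction 0 members and 1 pathway gene were higher, and all genes were 357 and 276.

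For TGF-b1+DP versus DMSO, a pseudocount of 5 FPKM left 0 members in either direction, 1 lower pathway gene, and 159 and 123 genes. Median-of-ratios scaling gave 2 higher members (TGFB2 and TGFBR2) and 0 lower, 2 lower pathway genes and 215 lower genes. Upper-quartile scaling gave 0 lower members and 2 lower pathway genes, and correction 0 lower members, 2 lower pathway genes and 216 lower genes. Lower genes numbered 533 with a pseudocount of 0.1 FPKM and 206 at a mean of at least 5 FPKM. Depth is unknown, so the counting error of TGFB3, TGFBR3 and TGFB2 in DMSO cannot be given.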
